A study of Mus musculus with 12 samples.

Results

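The 10 genes described here encode Toll-like receptors of the mouse (Tlr1, Tlr2, Tlr3, Tlr4, Tlr7 and Tlr9), the receptor homologue Cd180 with its partner Ly86, the receptor chaperone Unc93b1 and the signalling adaptor Myd88. They were taken by symbol from the 19494 genes of the array, with the probe set of highest mean kept for each gene, and all 10 were found. RNA came from bone marrow cells of untreated mice, sorted within the lineage-negative Sca-1+ Kit+ (LSK) compartment into haematopoietic stem cells (HSC, CD48-CD150+) and multipotent progenitors (MPP, CD48+CD150-). Mice of genotype Nfat5 fl/fl Vav-Cre (KO) were set against Nfat5 +/+ Vav-Cre mice (WT), so the controls carried the Cre too. Vav-Cre acts across the haematopoietic system, so the deletion is neither induced nor limited to stem cells, and KO cells developed without Nfat5, the gene of a transcription factor of the osmotic stress response. There were 3 WT mice (numbers 3, 12 and 64 in the labels) and 3 KO mice (2, 11 and 70). Each mouse gave 1 HSC array and 1 MPP array, 12 in all, and the labels state neither age nor sex. Values below list the mice in that order.

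Toll-like receptors recognise conserved microbial molecules. Tlr2, with Tlr1 as a partner for lipopeptides, and Tlr4, the receptor for lipopolysaccharide, work at the cell surface. Tlr3, Tlr7 and Tlr9 recognise RNA or DNA inside endosomes, where Unc93b1 delivers them. Myd88 carries the signal of these receptors except Tlr3. Cd180 (RP105) resembles Tlr4 outside the cell but lacks the signalling domain, is held at the surface by Ly86 (MD-1), and is known from B cells and as a regulator of Tlr4. Blood progenitors are known to sense microbial products through such receptors, with a shift towards myeloid output.

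The promoters of Cd180 and Ly86 are shown because these partner genes were both called between HSC and MPP in the results that follow. Promoters are RefSeq's (assembly GRCm38.p6), with 250 bases before and 50 after an annotated transcript start, written 5′ to 3′ on the gene's strand. Of the 10 genes, 7 had 9 promoters in that table, and Tlr4, Tlr7 and Unc93b1 had none. Each promoter was searched on both strands for TGGAAA (the core bound by NFAT proteins including Nfat5), GAGGAA (a PU.1-type core), GAAANNGAA (an interferon response core) and GGGANTTCC (an NF-kB core). Capitals mark such a match, and Cd180, at chr13:102693297-102693596 on the plus strand, had none on this promoter or on its second annotated one. Ly86, at chr13:37345095-37345394 on the plus strand, held the interferon response core at position 1, the transcript start itself.
Cd180: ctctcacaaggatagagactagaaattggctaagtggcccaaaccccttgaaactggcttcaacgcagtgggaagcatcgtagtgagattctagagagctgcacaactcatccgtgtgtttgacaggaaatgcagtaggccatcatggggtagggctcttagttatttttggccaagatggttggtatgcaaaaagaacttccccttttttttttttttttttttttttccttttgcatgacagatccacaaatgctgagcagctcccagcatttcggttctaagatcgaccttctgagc
Ly86: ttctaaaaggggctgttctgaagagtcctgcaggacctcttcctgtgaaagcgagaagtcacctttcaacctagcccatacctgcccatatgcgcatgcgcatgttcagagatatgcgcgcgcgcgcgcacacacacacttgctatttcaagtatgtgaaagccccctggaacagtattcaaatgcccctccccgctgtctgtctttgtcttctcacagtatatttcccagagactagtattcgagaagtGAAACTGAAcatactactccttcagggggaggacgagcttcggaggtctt

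The interferon response core was present in 8.56% of 32851 promoters of the same length, and among these genes also in that of Myd88, at position -40. TGGAAA occurred in 21.4% of all promoters and in those of 3 of the 7 genes. These short windows, with 10 bases on either side of the match, were chosen after the values were seen. They lie at chr5:64932738-64932763 (minus strand, position -54, match on the opposite strand), chr8:45410512-45410537 (minus strand, position -147) and chr9:106222470-106222495 (plus strand, position -118).
Tlr1: tgtctcaggcTTTCCAttatgccagt
Tlr3: catttcctgcTGGAAAactggatggc
Tlr9: gggaggagagTGGAAAgaggaagggg

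GAGGAA, found in 28.3% of all promoters, was present for Tlr1 and Tlr9, and in Tlr9 it directly follows the TGGAAA shown. The NF-kB core, found in 1.68%, was present for Tlr2 at chr3:83841761-83841790 (minus strand), where it reads on both strands in overlap from position -172, and this window too was chosen after the values were seen.
Tlr2: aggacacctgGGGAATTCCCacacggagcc

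These matches are descriptions of letters in a window. Binding there was not measured.

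Nfat5 itself was checked in every array. Its log2 intensity in HSC was 8.54, 8.27 and 8.99 in WT mice and 7.85, 7.34 and 7.89 in KO mice. In MPP it was 7.82, 8.28 and 7.98 in WT mice and 6.99, 7.45 and 7.04 in KO mice. Of all genes tested, 8.87% in HSC and 9.49% in MPP had KO and WT groups that did not overlap, in either direction. For Nfat5, all KO arrays lay below all WT arrays of the same population, which matches the labels' direction. The differences were -0.91 (SE 0.23, adjusted p = 0.566 over all genes tested, limma) in HSC and -0.87 (SE 0.23, adjusted p = 0.99991) in MPP, and the labels do not say where the probe set lies relative to the deleted exons. Median intensities of the arrays were 5.81 to 5.91. The HSC array of KO mouse 2 had the widest deviations from its group mean (SD 0.44, against 0.28 to 0.38 on the other arrays). Markers of the sort moved with the populations. Over both genotypes, 5 of 8 stem cell markers were called higher in HSC and 7 of 8 multipotent progenitor markers higher in MPP. Of all genes, 4.85% were called there and 2.92% called lower in HSC. Slamf1 (CD150) was at 8.04 in HSC and 5.80 in MPP of WT mice and Cd48 at 5.74 and 8.55. In HSC of WT and KO mice Dntt averaged 3.63 and 4.03, Il7r 4.45 and 4.76, and Ccr9 4.49 and 4.47. Tek averaged 4.56 and 4.66 in MPP. These means lay under the filter value given below, so Dntt, Il7r, Ccr9 and Tek were tested only through the other population. Such genes have to differ, so the counts describe the lists and are not independent evidence of the sort.

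Levels of the 10 genes fell into 3 kinds. Tlr7, Cd180 and Ly86 lay higher in MPP than in HSC. Tlr2, Tlr3, Tlr4, Unc93b1 and Myd88 had probe sets above the threshold for testing but no call between any groups. Tlr1 and Tlr9 lay in the lowest 25% of genes by mean intensity (under 4.96 on the log2 scale) and were left out of the test with the other genes there, so 8 of the 10 were tested among 14620 genes. A gene was called at an adjusted p under 0.05, with Benjamini-Hochberg adjustment over those 14620 genes. Levels of different probe sets are not on a common scale and are compared only within a gene.

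**Figure D1:**
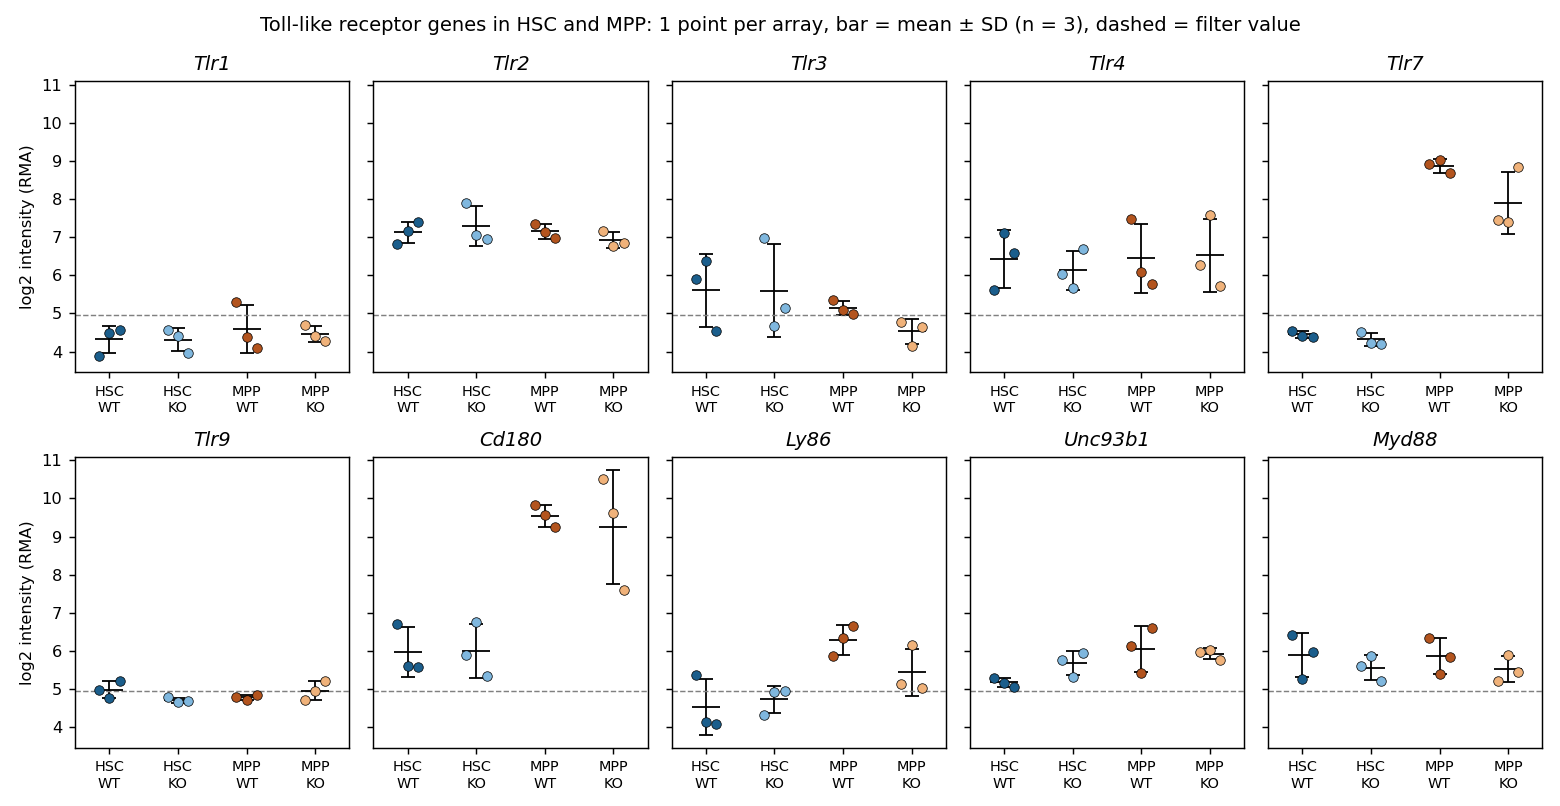
Log2 intensity (vertical axis) of each of the 10 genes on each array, with 1 point per array, by population and genotype. Horizontal bars are group means with SD (n = 3 mice) and the dashed line is the 4.96 filter value. Tlr7 in HSC lies under the line on all 6 arrays and in MPP between 7.41 and 9.02.

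HSC and MPP were compared first in WT mice, then in KO mice, which are other animals. In WT mice 2 of the 8 tested genes were called, both lower in HSC, where 2.07% of all genes were called and 1.32% called lower. In KO mice the count was again 2, against 1.26% of all genes called and 0.739% called lower. Over both genotypes, which uses the same arrays and so adds no independent evidence, 3 of 8 were called lower, against 4.85% of all genes called and 2.92% called lower. These shares stand for 302, 184 and 709 genes. Tlr7 and Ly86 averaged 4.38 and 4.63 in HSC, under the filter value, and were tested only through their MPP means of 8.38 and 5.86. A gene that enters the test in this way has to differ, so the counts of the set describe it and are not evidence that it stands apart. The counts of all genes depended on the mice. Without mouse 3, 12 or 64 the count in WT mice was 82, 96 or 71, and without mouse 2, 11 or 70 that in KO mice was 59, 83 or 87. With the mouse as a block, as HSC and MPP came from the same animals, 180 genes in WT and 113 in KO mice were called. The median difference (HSC minus MPP) of the 8 genes was -0.45 in WT and -0.32 in KO mice, against 0.03 and 0.05 over all genes tested.

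Tlr7, the endosomal receptor for single-stranded RNA, had the largest difference of the set. In HSC its log2 intensity was 4.54, 4.41 and 4.39 in WT mice and 4.52, 4.22 and 4.21 in KO mice. In MPP it was 8.92, 9.02 and 8.67 in WT mice and 7.45, 7.41 and 8.83 in KO mice. Every HSC array lay under the filter value and far below every MPP array, and the KO mice 2 and 11 had the lowest MPP values. Tlr7 was lower in HSC by 4.43 in WT mice (21.5-fold; difference -4.43, SE 0.32, 95% interval -5.13 to -3.72, adjusted p = 0.000103, limma), rank 4 of all genes by p. In KO mice the difference was -3.58 (11.9-fold, SE 0.32, interval -4.28 to -2.87, adjusted p = 0.000597), rank 7. Within each mouse, HSC minus MPP ran from -4.62 to -2.93, below 0 in 6 of 6. As Tlr7 was tested only through MPP, this sign is not independent evidence. No share of all genes stands beside this count or those of Cd180, Ly86 and Unc93b1 below. The call held under 14 of 14 alternatives in each genotype, between -4.50 and -4.33 in WT and between -3.90 and -3.06 in KO mice. The HSC signal was not shown to be above background, as no detection calls were used. If it is background, the differences and folds above are lower limits of the difference in RNA, and the ranks are ranks of signal. Fewer positive cells cannot be told apart from less RNA per cell in sorted bulk samples. In order of mean level, MPP of WT mice came first (8.87 ± 0.18, SD, n = 3) and MPP of KO mice next (7.89 ± 0.81). HSC of WT (4.45 ± 0.08) and KO mice (4.32 ± 0.18) followed, and these last groups overlapped, as did the MPP groups.

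Cd180 followed the same order of populations with a wider spread. HSC measured 6.72, 5.62 and 5.58 in WT mice and 5.89, 6.77 and 5.35 in KO mice. MPP measured 9.82, 9.56 and 9.25 in WT mice and 10.52, 9.63 and 7.59 in KO mice. All HSC arrays lay below all MPP arrays, and the MPP value of KO mouse 70 was the lowest of the MPP group by over 1 log2 unit. The difference was -3.57 (11.9-fold, SE 0.65, interval -5.00 to -2.15, adjusted p = 0.02) in WT mice. It was -3.25 (9.50-fold, SE 0.65, interval -4.67 to -1.82, adjusted p = 0.0384) in KO mice. Over both genotypes it was -3.41 (SE 0.46, interval -4.42 to -2.40, adjusted p = 0.00175), called under 14 of 14 alternatives, and below 0 in 6 of 6 mice (-4.63 to -2.25). The call in WT mice was lost without mouse 3, 12 or 64 (adjusted p = 0.0999, 0.157 and 0.17). That in KO mice was lost without mouse 2 (-2.56, adjusted p = 0.214), 3, 11, 12 or 64 (adjusted p = 0.0686, 0.129, 0.0945 and 0.086), without the HSC array of mouse 2 (0.107), and in a fit of these arrays alone (0.185). Tlr7 and Cd180 were the 2 of 8 tested genes for which all 6 HSC arrays lay below all 6 MPP arrays, as did 2.36% of all genes.

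Ly86, whose product MD-1 binds Cd180, stood nearer the filter value. HSC measured 5.38, 4.14 and 4.10 in WT mice and 4.31, 4.93 and 4.95 in KO mice, so 5 of 6 HSC arrays were under it. MPP measured 5.87, 6.33 and 6.65 in WT mice and 5.13, 6.15 and 5.03 in KO mice. HSC lay below MPP within each genotype and in 6 of 6 mice (-2.55 to -0.08), but the HSC array of WT mouse 3 lay above 2 MPP arrays of KO mice. Ly86 was tested only through MPP, so the sign within mice is not independent evidence. Of all genes, 10.3% in WT and 7.33% in KO mice had all HSC arrays below all MPP arrays. Over both genotypes the difference was -1.23 (SE 0.28, interval -1.85 to -0.60, adjusted p = 0.0322). With the mouse as a block the adjusted p was 0.0795. It was also above the threshold without mouse 2, 11, 12, 64 or 70 (0.0872, 0.0862, 0.138, 0.162 and 0.0578) and without the HSC array of mouse 2 (0.0699). In WT mice alone the difference was -1.75 (SE 0.40, adjusted p = 0.055) and in KO mice -0.71 (SE 0.40, interval -1.59 to 0.17, adjusted p = 0.522).

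Unc93b1, which carries Tlr3, Tlr7 and Tlr9 to endosomes, did not pass. HSC measured 5.29, 5.17 and 5.07 in WT mice and 5.77, 5.33 and 5.94 in KO mice. MPP measured 6.14, 5.42 and 6.60 in WT mice and 5.99, 6.03 and 5.76 in KO mice. All WT HSC arrays lay below all WT MPP arrays, as for 10.3% of all genes, and the KO groups overlapped. The difference was -0.88 in WT mice (SE 0.27, interval -1.47 to -0.28, adjusted p = 0.158), -0.25 in KO mice (SE 0.27, interval -0.84 to 0.35, adjusted p = 0.767) and -0.56 over both (SE 0.19, adjusted p = 0.134), below 0 in 5 of 6 mice.

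**Figure D2:**
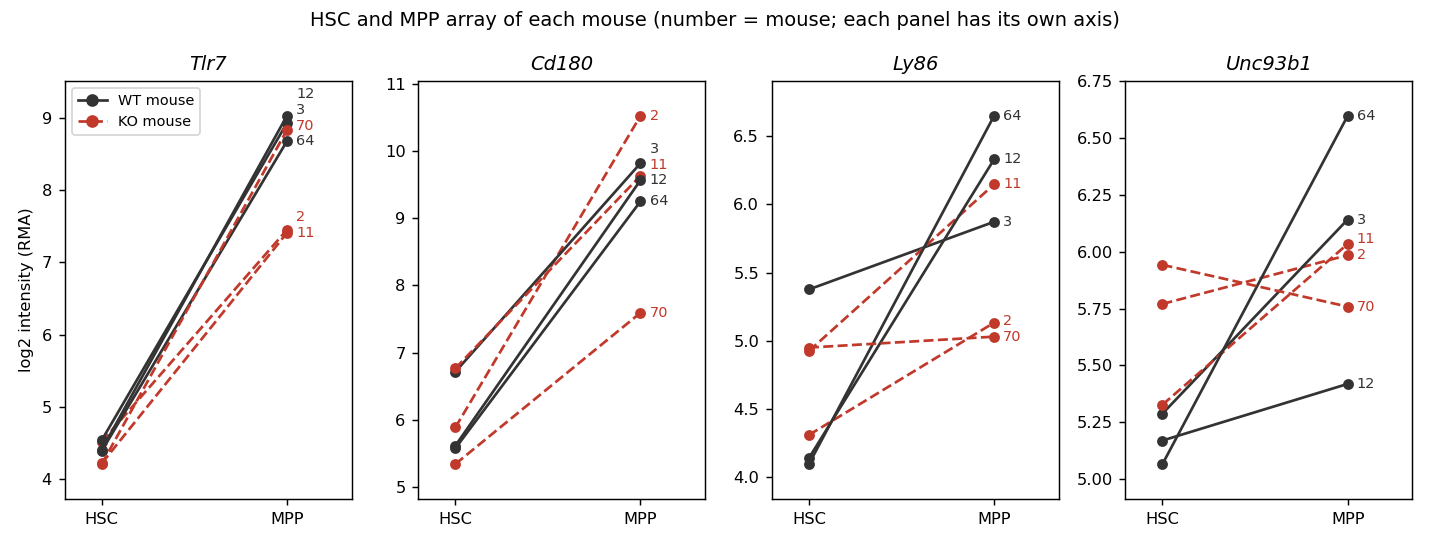
Log2 intensity of Tlr7, Cd180, Ly86 and Unc93b1 in the HSC and the MPP array of each mouse, joined by a line (solid for WT, dashed for KO mice), with the mouse number beside the MPP point. All 6 lines slope upward for Tlr7, Cd180 and Ly86, and 5 of 6 for Unc93b1, where KO mouse 70 runs the other way.

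The other endosomal receptors had no difference of this kind. Tlr3, the receptor for double-stranded RNA, spread widely in HSC, with 5.90, 6.38 and 4.54 in WT mice and 6.97, 4.68 and 5.13 in KO mice. In MPP it measured 5.35, 5.09 and 4.99 in WT mice and 4.78, 4.15 and 4.65 in KO mice. Of its 12 arrays 5 were under the filter value, with all 3 MPP arrays of KO mice among them. Its MPP mean of 4.83 was also under that value, so Tlr3 was tested only through its HSC mean of 5.60. It was higher in HSC in 5 of 6 mice, with a difference of 0.77 over both genotypes (SE 0.40, interval -0.13 to 1.66, adjusted p = 0.325), and its highest value was that of the HSC array of KO mouse 2. Tlr9, the receptor for unmethylated CpG DNA, lay between 4.65 and 5.20 on all 12 arrays. In a fit of all genes without the filter, its difference was -0.03 over both genotypes (interval -0.27 to 0.21, adjusted p = 0.918).

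The surface receptors Tlr1, Tlr2 and Tlr4 overlapped between all groups. Tlr2 measured 6.82, 7.16 and 7.39 in HSC and 7.36, 7.14 and 6.97 in MPP of WT mice, and 7.90, 7.05 and 6.95 in HSC and 7.17, 6.77 and 6.84 in MPP of KO mice. Its difference over both genotypes was 0.17 (SE 0.18, interval -0.23 to 0.57, adjusted p = 0.632). Tlr1, its partner, lay between 3.90 and 5.30, with 11 of 12 arrays under the filter value and the MPP array of WT mouse 3 above it. Without the filter its difference was -0.21 (interval -0.68 to 0.27, adjusted p = 0.649). Tlr4 ranged from 5.62 to 7.11 in HSC and from 5.71 to 7.58 in MPP. Within mice its difference ran from -1.92 to 1.01, with 3 mice on each side of 0, and the estimate of -0.21 had an interval of -1.11 to 0.69 (adjusted p = 0.812).

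Myd88, the shared adaptor, differed little within a mouse. HSC measured 6.43, 5.27 and 5.97 in WT mice and 5.61, 5.87 and 5.21 in KO mice. MPP measured 6.35, 5.40 and 5.85 in WT mice and 5.21, 5.91 and 5.46 in KO mice. WT mice held the same order in both populations, mouse 12 lowest and mouse 3 highest. KO mice did not, as mouse 11 was highest in both but the lowest was mouse 70 in HSC and mouse 2 in MPP. Within mice the difference stayed between -0.25 and 0.40. The estimate over both genotypes was 0.03 (SE 0.24, interval -0.49 to 0.55, adjusted p = 0.956).

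**Figure D3:**
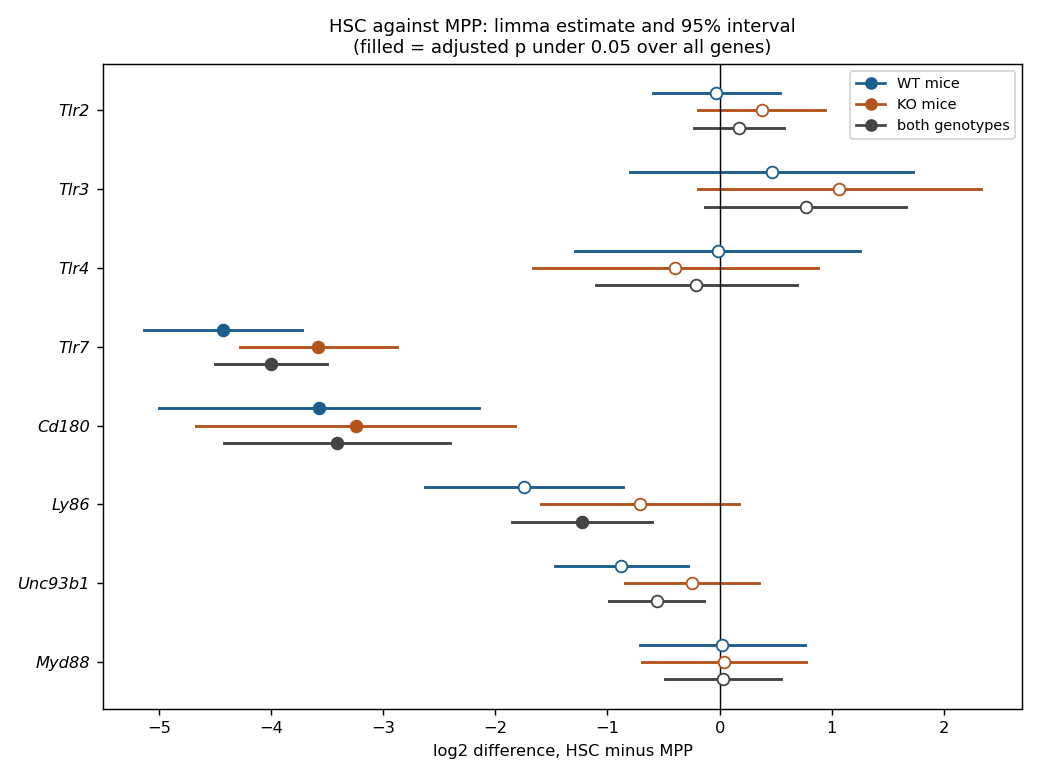
Difference in log2 intensity, HSC minus MPP (horizontal axis), for the 8 tested genes in WT mice, KO mice and both, with 95% intervals from limma. Filled points were called, which holds for Tlr7 (-4.43, -3.58, -4.00) and Cd180 in each comparison and for Ly86 over both genotypes.

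Loss of Nfat5 was then compared within each population. No gene of the 8 was called in HSC or MPP, where 0% of all 14620 genes were called in each by limma. Unadjusted p fell under 0.05 for 919 of all genes in HSC and 466 in MPP, and for 0 and 1 of the 8. In HSC the differences (KO minus WT) ran from -0.33 for Myd88 to 0.51 for Unc93b1, with adjusted p from 0.843 to 0.99939. Unc93b1 in HSC of KO mice lay above that of WT mice on all arrays (difference 0.51, SE 0.27, interval -0.09 to 1.10). It was the 1 tested gene of the set whose HSC groups did not overlap, as did not 8.87% of all genes. For Tlr7 in HSC the interval was -0.84 to 0.57 and for Cd180 -1.40 to 1.45.

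In MPP, 7 of the 8 differences were below 0, with a median of -0.32 against 0.0024 over all genes, and adjusted p was 0.99991 for each of them. These genes share their arrays, so the signs are not independent. Tlr7 had the lowest p: KO mice averaged 7.89 ± 0.81 and WT mice 8.87 ± 0.18 (SD, n = 3). The difference was -0.98 (SE 0.32, interval -1.68 to -0.28, limma's unadjusted p = 0.0109). This SE pools the spread of all 4 groups, with HSC of WT and KO mice (SD 0.08 and 0.18, all arrays under the filter value) among them. It is therefore not the spread of the MPP arrays alone, and the interval and p rest on it. KO mouse 70, at 8.83, lay within the WT range. Without that mouse the difference was -1.45 (adjusted p = 0.139). Over all fits that left out 1 mouse, the difference ran from -1.45 to -0.74, with adjusted p from 0.139 to 0.99999, and was never called. Ly86 stood at -0.85 (SE 0.40, interval -1.73 to 0.04) and Cd180 at -0.30 (SE 0.65, interval -1.72 to 1.13). Tlr3, at -0.62 (SE 0.57), was the 1 tested gene with MPP groups that did not overlap, as did not 9.49% of all genes. Its MPP arrays of KO mice were all under the filter value.

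**Figure D4:**
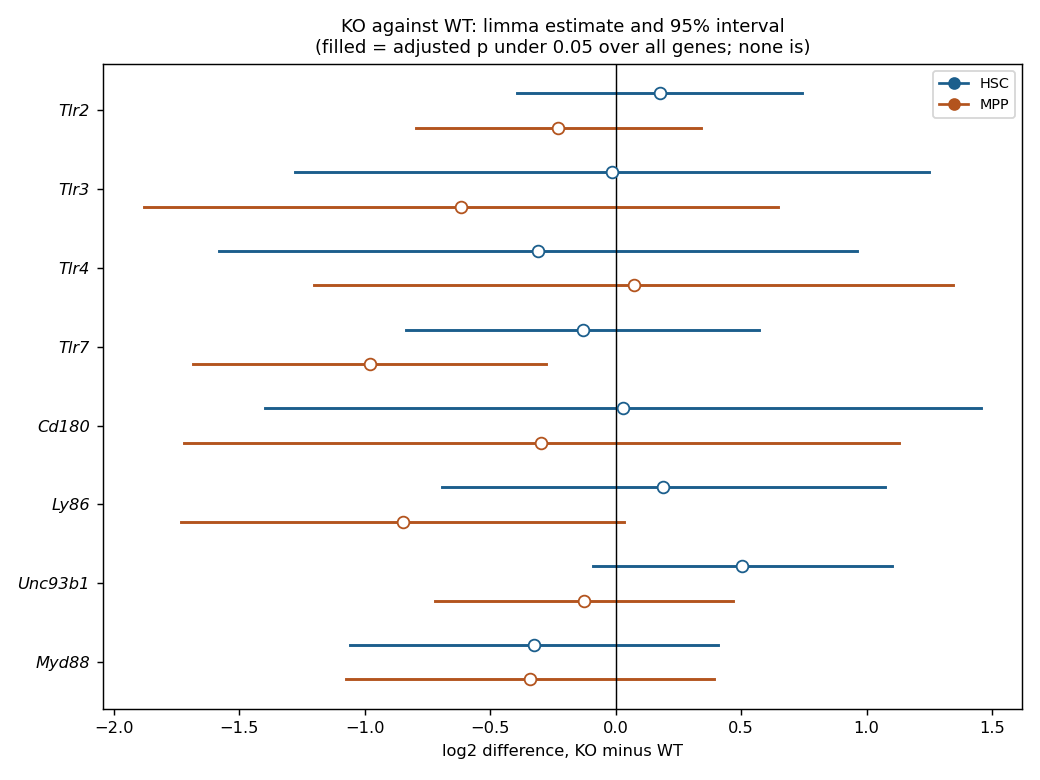
Difference in log2 intensity, KO minus WT (horizontal axis), for the 8 tested genes in HSC and in MPP, with 95% intervals from limma. No point is filled, as none was called, and Tlr7 in MPP (-0.98) is the 1 estimate whose interval, not adjusted for the number of genes, leaves out 0. Each interval uses a spread pooled over all 4 groups, which for Tlr7 include HSC arrays under the filter value.

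An interaction term compared the effect of genotype in HSC with that in MPP. By limma 0% of all genes passed (658 at an unadjusted p under 0.05, 0 of the 8). The largest estimates were 1.04 for Ly86 (SE 0.57, interval -0.21 to 2.29) and 0.85 for Tlr7 (SE 0.45, interval -0.15 to 1.84), both with an adjusted p of 0.99962. At this number of mice, the difference of Ly86 between populations in KO mice was not distinguishable from that in WT mice.

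Other genes of the pathway were read from lists by role. Of the remaining mouse Toll-like receptors, Tlr5, Tlr6, Tlr8, Tlr11, Tlr12 and Tlr13, none reached the threshold for testing, with group means from 3.58 (Tlr13) to 5.07 (Tlr6, MPP of WT mice). Of 17 tested partners in ligand binding, trafficking and receptor processing, 1 was called over both genotypes, against 4.85% of all genes, with a list median of 0.07. This was Ctss, cathepsin S, an endosomal protease, at 7.41 and 7.24 in HSC and 8.57 and 8.39 in MPP of WT and KO mice (difference -1.16, SE 0.19, adjusted p = 0.00587). It was called under 14 of 14 alternatives. Ctsl, cathepsin L, a protease that also processes endosomal receptors, had a difference of 0.54 (SE 0.16, adjusted p = 0.0841).

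Of 28 listed adaptors and kinases next to the receptors, 23 were found by symbol, and Irak1, Irak4, Traf3, Chuk and Ripk1 were not. Among the 20 tested, 0 were called, with a median of -0.06. An unadjusted p under 0.05 was found for 5 of them, and for 2869 of all 14620 genes. Irf7, among these 5, averaged 4.64 and 4.88 in HSC of WT and KO mice, under the filter value. It was tested only through MPP. The lowest p were those of Ube2n, an E2 enzyme for K63-linked ubiquitin (-0.56, SE 0.21, adjusted p = 0.172), and Ticam2, the bridging adaptor of Tlr4 (-0.70, SE 0.28, adjusted p = 0.201). Without mouse 11, Ube2n was called (-0.76, adjusted p = 0.0181). Among 12 negative regulators, 0 were called (2 at an unadjusted p under 0.05), with a median of -0.01. Irak3 (IRAK-M), a kinase homologue that restrains Myd88 signalling, averaged 9.41 and 8.86 in HSC and 7.73 and 8.04 in MPP of WT and KO mice (difference 1.25, SE 0.38, adjusted p = 0.101). With the mouse as a block it was called (adjusted p = 0.0309), as it was without mouse 70 (0.0332). The inhibitory receptor Lilrb4a had a difference of -0.98 (SE 0.28, adjusted p = 0.0795, and 0.0402 with the block).

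Of 18 tested inflammatory genes that Toll-like receptors can induce, 2 were called lower in HSC, as were 2.92% of all genes, with a list median of 0.13. Ccl3, a chemokine, averaged 6.26 and 6.33 in HSC and 9.48 and 9.14 in MPP of WT and KO mice (difference -3.02, SE 0.57, adjusted p = 0.0126). Its call was lost without mouse 11, 12 or 64 (adjusted p = 0.0677, 0.0738 and 0.0682). Cd86, a costimulatory receptor, averaged 6.31 and 6.34 in HSC and 7.29 and 7.22 in MPP (difference -0.93, SE 0.22, adjusted p = 0.0391). With the mouse as a block its adjusted p was 0.135, and it passed under 8 of 14 alternatives, not without mouse 2, 3, 11 or 64 (0.141, 0.159, 0.157 and 0.176) or without the HSC array of mouse 2 (0.0752). Within WT or KO mice alone limma called 0 genes of these lists (unadjusted p under 0.05 in WT and KO mice for 3 and 3 partners, 3 and 3 adaptors and kinases, 2 and 2 negative regulators, and 4 and 2 inflammatory genes, against 2063 and 1806 of all genes). For KO against WT in either population and for the interaction the count was 0 too. At an unadjusted p under 0.05 there were 1, 0 and 0 of the partners and 2, 1 and 3 of the adaptors and kinases, and 0 of the other lists. The largest KO minus WT difference in these lists was that of Ikbke in HSC (1.79, SE 0.41, limma's adjusted p = 0.471). Ikbke averaged 6.60 in HSC of WT and 8.39 in HSC of KO mice.

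**Figure D5:**
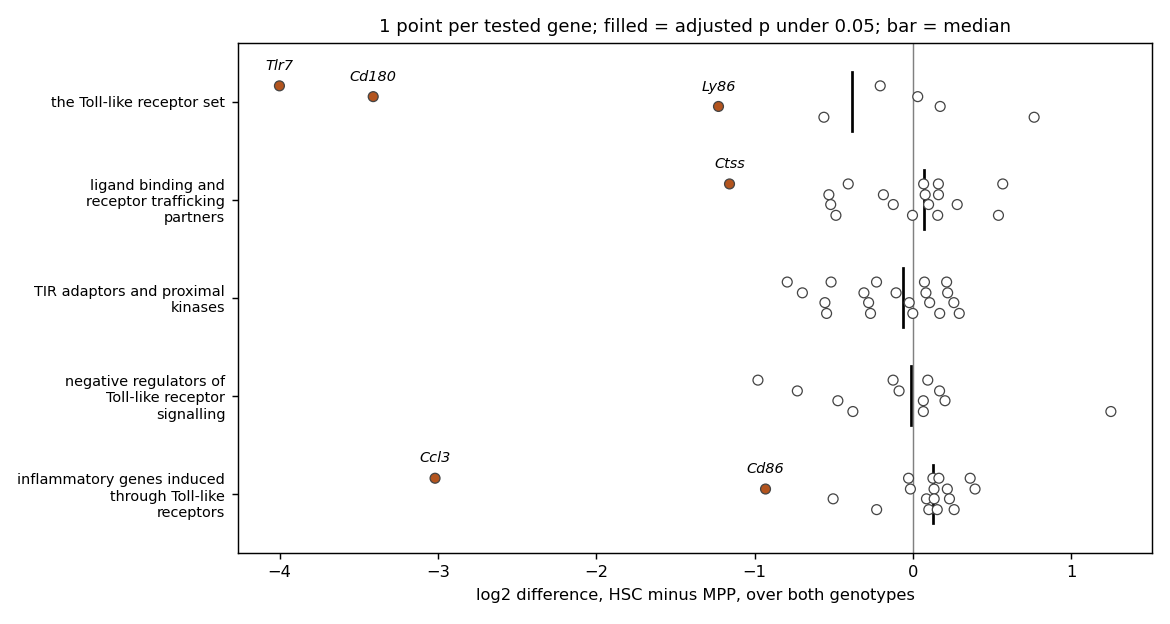
Difference in log2 intensity, HSC minus MPP over both genotypes (horizontal axis), for each tested gene of the set and of the pathway lists. Filled points were called and vertical bars are list medians. Tlr7 (-4.00), Cd180 (-3.41), Ccl3 (-3.02), Ly86 (-1.23) and Ctss (-1.16) stand to the left, and list medians other than that of the set lie between -0.06 and 0.13.

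Markers of other cell types were read on the same arrays, as Tlr7, Cd180 and Ly86 are also transcribed in B cells, monocytes and dendritic cells. Of 8 tested B cell markers, 5 were called lower in HSC over both genotypes (Cd79a, Ebf1, Vpreb1, Igll1 and Blnk), as were 2.92% of all genes. The mean over the 9 measured was 5.84 to 6.04 on HSC arrays and 6.58 to 7.12 on MPP arrays. Ebf1, an early B-lineage factor, was at 5.88 in HSC and 8.30 in MPP of WT mice. Pax5, which marks committed B cells, was not called, with group means between 5.09 and 5.69, and Ms4a1 (CD20) was under the threshold for testing. Of 9 monocyte and macrophage markers, 3 were called lower in HSC (Csf1r, Ly6c2 and Ccr2), against the same 2.92%. The list median difference was 0.06, and Cx3cr1, Cd14, Vcan, Fcgr1 and Lyz2 (0.06 to 0.46, not called) lay higher in HSC. List means were 5.70 to 6.32 on HSC and 6.21 to 6.62 on MPP arrays. Ccr2 in HSC averaged 4.10 in WT and 4.74 in KO mice, under the filter value, and was tested only through MPP. Adgre1, a macrophage surface receptor, stayed between group means of 4.93 and 5.06. Of 8 tested dendritic cell markers, 2 were called lower in HSC (Ccr9 and Flt3, both also markers of multipotent progenitors), against the same 2.92%. Among those not called, Siglech (0.14) and Cd209a (0.24) lay higher in HSC. Bst2 (-0.28), Itgax (-0.27), Zbtb46 (-0.13) and Irf8 (-0.004) lay lower. List means were 5.45 to 5.63 and 5.89 to 6.15. Ccr9 averaged 4.49 and 4.47 in HSC of WT and KO mice and was tested only through MPP too, as was Itgax (4.83 and 4.81). Mature neutrophil markers varied between arrays within a group, from 5.82 to 7.82 in HSC of WT mice and from 4.84 to 6.99 in MPP of WT mice, and 0 of 9 tested were called (limma). The part of these transcripts in the differences of Tlr7, Cd180 and Ly86 was not tested.

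Genes with the most similar profile over the 12 arrays were listed for Tlr7 and Cd180. For Tlr7 these were the RNA helicase Ddx4 (Pearson r = 0.980), Dntt, the lymphoid DNA polymerase TdT (0.971), the lectin Clec2i (0.970), the chemokine Ccl9 (0.966) and the sialic acid hydroxylase Cmah (0.965). Within the 6 HSC arrays r fell between -0.31 for Ccl9 and 0.94 for Cmah, and within the 6 MPP arrays between 0.27 for Dntt and 0.87 for Ddx4. All 12 points share the difference between populations. For Cd180 they were H2ac24 (0.960), the lipid synthase Cds1 (0.960), H2bc13 (0.958), the predicted gene Gm6455 (0.953) and H2bc9 (0.948). Within HSC their r ran from 0.32 for H2bc13 to 0.90 for H2ac24, and within MPP from 0.80 for Gm6455 to 0.95 for H2bc13. All were picked by r over these same arrays. Replication histone genes have near-identical copies, so the source of these probe set signals is uncertain. Cd180 and Tlr7 correlated with r of 0.852 over all arrays, but with 0.16 within HSC and -0.49 within MPP, and Cd180 and Ly86 with 0.781, 0.62 and 0.22.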

How the data were processed

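RNA of 12 sorted samples was amplified from picogram amounts with NuGEN kits and hybridised to mouse arrays, per the labels' protocols. The deposited table gives log2 intensities by probe set, normalized by the authors with RMA according to the submitters' processing notes. These notes list limma as well. Versions and genome build: not given in the sources used here. Because RMA gives all arrays a common distribution, a shift of the whole transcriptome would not be seen, and it compresses differences of weak genes. No scanner file or detection call was used, so precision rests on how many arrays there are.

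Of 22142 probe sets, 19527 had 1 symbol, 0 had several and 2615 had none. The highest-mean probe set was kept (33 genes had several), and the 4874 genes in the lowest 25% by mean were left out. Group means of all 12 arrays were fitted in limma 3.58.1 (R 4.3.3) with contrasts, two-sided moderated tests and Benjamini-Hochberg adjustment over 14620 genes. On simulated data for HSC against MPP in WT, with 50 genes changed at each size among 14620, the fit recovered 25 at a log2 change of 1, 41 at 2, 48 at 3 and 49 at 4, with 8 false calls. The labels name the mouse of each array, so HSC and MPP pair by animal. Deviations from group means within a mouse had a Pearson r across genes of 0.032 to 0.091, and a fit blocked on the mouse (consensus correlation 0.072 where random) was an alternative.

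The genes, lists and rules were chosen with earlier results of these data known. The text names the 10 genes and Nfat5, called genes of each pathway list (or the 2 of lowest p where fewer than 2 were called), and the 5 tested genes of highest r to Tlr7 and to Cd180. Irf7, Ikbke and the examples among marker genes were chosen after their values were seen. Other alternatives were a filter at 50% or none, averaged probe sets, quantile normalization applied again, trended and robust moderation, fits of the compared arrays alone, and fits that left out 1 mouse. Omitting the HSC array of mouse 2 (KO), and all alternatives for pathway genes, were added after seeing the data.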

Additional observations from a re-analysis of the deposited data

How the results depend on the processing

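Tlr7 was called between HSC and MPP in WT mice, in KO mice and over both genotypes under all 14 alternatives, and Cd180 over both genotypes under all 14. Of 648 values of single genes of the set under alternatives, 589 kept direction and side of the threshold, 17 lost the call, 2 gained it and 40 changed sign, none of which was called. Genes called in HSC against MPP moved from 302 to 180 in WT mice and from 184 to 113 in KO mice with the mouse as a replicate block. In KO mice they moved to 79 with only the arrays compared and to 104 when the HSC array of mouse 2 (KO) was omitted, and in both of these settings the tested genes of the set called there moved from 2 to 1. Leaving out a mouse gave 71 to 299 genes in WT mice, 59 to 167 in KO mice and 380 to 527 over both genotypes, with 1 to 2, 1 to 2 and 2 to 3 of the set, and 0 to 1 genes for KO against WT in HSC. The replicate block ended the call of Ly86 over both genotypes (adjusted p = 0.0795) and of Cd86, and added those of Irak3 and Lilrb4a. It changed no other call of a gene of the set or of a pathway gene named by the rule above. A filter at 50% left out Tlr3, Ly86, Unc93b1 and Myd88. In WT mice Ly86 was called with trended and robust moderation (adjusted p = 0.0491) and without mouse 3 (-2.37, adjusted p = 0.0369), and Ctsl was called over both genotypes after the second quantile normalization (0.64, adjusted p = 0.0339).

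Sign changes reached 0.91 for Tlr4 and were of differences that were not called. After the second quantile normalization Tlr2 in WT mice was at 0.053, Myd88 at -0.016 in WT mice, -0.035 in KO mice and -0.026 over both, Tlr3 for KO against WT in HSC at 0.046, and the interaction of Myd88 at -0.019. With the HSC array of mouse 2 (KO) omitted, Tlr2 for KO against WT in HSC was at -0.12, and the interactions of Tlr3 and Myd88 were at -0.089 and -0.010. Leaving out a mouse, HSC minus MPP ran in WT mice from -0.26 to 0.22 for Tlr2, -0.53 to 0.91 for Tlr4 and -0.026 to 0.10 for Myd88. It ran in KO mice from -1.08 to 0.37 for Tlr4 and -0.14 to 0.18 for Myd88, and over both from -0.55 to 0.26 and -0.060 to 0.10. KO minus WT in HSC ran from -0.12 to 0.35 for Tlr2, -0.70 to 0.44 for Tlr3, -0.72 to 0.029 for Tlr4, -0.35 to 0.40 for Cd180 and -0.030 to 0.61 for Ly86. In MPP it ran from -0.46 to 0.59 for Tlr4, -0.93 to 0.53 for Cd180 and -0.44 to 0.15 for Unc93b1. The interaction ran from -1.30 to 0.38 for Tlr4, -0.17 to 1.02 for Cd180 and -0.17 to 0.16 for Myd88. The cause of these moves was not tested. Signal near the filter value limits Tlr1, Tlr3, Tlr9, Ly86 and the HSC values of Tlr7.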

Other observations

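Further marker lists described the sorted cells over both genotypes, where 4.85% of all genes were called and 2.92% called lower in HSC. Kit, the receptor of the sort gate, had a difference (HSC minus MPP) of 0.41 and was between 9.69 and 10.89 on all arrays. Of 4 tested T and NK cell markers, Nkg7, a cytotoxic granule protein, was called lower in HSC, with group means of 5.94 in WT and 6.68 in KO mice in HSC and 8.66 and 8.32 in MPP (difference -2.18). List means over 9 T and NK cell markers were 4.76 to 5.07 on HSC and 5.01 to 5.27 on MPP arrays. Of 7 erythroid genes, the transferrin receptor Tfrc was called lower in HSC (-1.53) and the carbonic anhydrase Car2 higher (0.76). Of 5 tested endothelial and stromal markers, the adhesion receptor Pecam1, also found on haematopoietic cells, was called lower in HSC (-1.20), with list means of 5.61 to 5.71 on HSC and 5.53 to 5.70 on MPP arrays.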
